A study of Mus musculus with 4 samples.

Results

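Insulin-like growth factor binding protein (IGFBP) genes were followed across the cell clusters of a mouse embryonic stem cell differentiation. The members were Igfbp2, Igfbp4, Igfbp7 and Igfbpl1, chosen by gene symbol from the authors' deposited table of cluster marker genes. They are 4 of the 1197 genes in that table and account for 20 of its 2212 entries, 10 higher and 10 lower. Each entry sets 1 of 15 numbered clusters against all other cells, and Igfbp5, a further family gene that the table holds, is described beside the members.

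The cells came from a directed cardiac differentiation of embryonic stem cells, and single cells were profiled by the 10x droplet method at a mesoderm stage and at a cardiac stage. All 4 libraries carry the BRG1 3XFLAG genotype, a tagged form of the chromatin remodelling ATPase BRG1. The wild-type mesoderm and wild-type cardiac libraries carry only this allele, and the Brm knockout mesoderm and Brm knockout cardiac libraries also lack the related ATPase BRM (BRM KO in the labels). There was 1 library in each group, and the labels name no strain, clone or added agent. The table names no library and does not say which ones entered it, so genotype and stage were not compared. Smarca2, the gene of BRM, is in no entry, which leaves the genotype labels unchecked. Cell numbers and depth are unknown, no value has a replicate, and the clusters come from the expression values they are compared on, so every cluster value below is a description with no test.

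IGFs are secreted growth and survival factors that act through the IGF1 receptor, while the IGF2 receptor takes up IGF2 for breakdown. Igfbp2 and Igfbp4 encode classical binding proteins that hold IGFs outside the cell and limit or prolong their action, and pregnancy-associated plasma protein A cleaves IGFBP4 to free the ligand. Igfbp7 encodes a related secreted matrix protein that binds IGFs weakly and is well known from vessels and stroma. Igfbpl1 encodes an IGFBP-like secreted protein that is known from the developing nervous system.

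The promoter sequences of the members are shown because the genes share a family and differ in where they were listed. RefSeq promoters on GRCm38.p6 were matched for 3 of the 4 members, Igfbp2, Igfbp4 and Igfbp7. The 250 bases before each start are printed 5′ to 3′ on the gene's strand, with motif matches on either strand in capitals. The GC box motif was searched as GGGCGG, and the other motif is spelled out after the sequences. Neither motif overlapped the other. The windows lie at chr1:72824230-72824479 (plus strand) for the first of 2 Igfbp2 starts, chr11:99040994-99041243 (plus strand) for Igfbp4 and chr5:77408046-77408295 (minus strand) for Igfbp7.
Igfbp2: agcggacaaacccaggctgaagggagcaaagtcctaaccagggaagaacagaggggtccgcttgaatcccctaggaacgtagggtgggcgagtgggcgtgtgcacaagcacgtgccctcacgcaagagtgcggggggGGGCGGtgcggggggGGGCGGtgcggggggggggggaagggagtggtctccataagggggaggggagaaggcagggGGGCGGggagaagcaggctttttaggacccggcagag
Igfbp4: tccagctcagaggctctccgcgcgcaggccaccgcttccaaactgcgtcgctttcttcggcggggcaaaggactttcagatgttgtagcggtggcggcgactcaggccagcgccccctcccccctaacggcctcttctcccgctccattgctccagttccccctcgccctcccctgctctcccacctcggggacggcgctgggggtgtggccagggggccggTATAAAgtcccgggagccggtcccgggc
Igfbp7: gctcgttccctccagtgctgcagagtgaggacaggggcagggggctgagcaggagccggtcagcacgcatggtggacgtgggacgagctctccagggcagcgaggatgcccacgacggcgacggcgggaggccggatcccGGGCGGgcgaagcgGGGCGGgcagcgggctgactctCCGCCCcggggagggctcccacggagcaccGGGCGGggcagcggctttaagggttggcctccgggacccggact
The Igfbp2 window held 3 matches to the GC box motif and the Igfbp7 window 4. The Igfbp4 window held none of these and 1 match to the core promoter motif TATAAA, which begins 28 bases before the start and was in neither of the other windows. Of 32851 promoter windows of the same length, 32.7% held the GC box motif and 12.4% the core promoter motif on either strand. The second Igfbp2 start held neither motif in its window. These matches describe letters and not binding.

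Values are given on 3 scales. The deposited fold change is a natural log difference between the mean in a cluster and the mean in all other cells, and folds are its exponential. The deposited share of cells in which a gene was detected is given as a percent. From these shares the size of each cluster was solved, which gave the share of all detecting cells that lay in a cluster and the level in a cluster relative to the mean of all cells. The bounds after such a value cover rounding of the shares and 2 standard errors of the cluster size, and not the sampling of cells. Free RNA in droplets can add detections to any cluster, and its part in these shares was not tested. Any constant added before logs stays in the folds and in the levels worked out from them. Neither need then be a plain ratio of means.

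Igfbp2 was the most widely listed member. It was listed for 10 of the 15 clusters, higher in 5 and lower in 5, where 1.67% of the table's genes were listed for at least 10 clusters and 0.251% were listed higher for at least 5. It was detected in 54.1% of all cells, with estimates from the 10 clusters between 54.06% and 54.15%. Its detection inside the listing clusters ran from 9.4% to 91.1% by the authors' deposited table.

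The highest Igfbp2 values lay in clusters 6 and 1. A percent in brackets after a cluster is the share of the table's genes that were listed in the same direction there. Cluster 6 [2.51%], led by Pcp4l1, Tpbg and the midbrain signal Wnt1, detected Igfbp2 in 91.1% of cells against 51% outside, a 2.69-fold higher mean by the authors' deposited table. Cluster 1 [3.93%], led by the eye field factor Rax, Cdkn1c and Lmo1 and neural-progenitor-like with 4 of 7 markers in the table higher, detected it in 88.7% against 48.8%, 2.50-fold higher by the authors' deposited table. No other listing cluster detected Igfbp2 in as large a share of its cells.

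The other 3 higher clusters had smaller folds. Cluster 4 [1.92%], led by Ccnd2, Fgf8 and Dbx1 and neural-progenitor-like with 5 of 7 markers, detected Igfbp2 in 82.9% against 51.4%, 1.79-fold higher by the authors' deposited table. Cluster 12 [7.77%], neuron-like with all 5 neuron markers in the table higher, detected it in 83% against 53.6%, 1.73-fold higher by the authors' deposited table. Cluster 10 [6.85%], led by the fibrillar collagens Col3a1 and Col1a2 and by Lgals1, detected it in 79% against 53.4%, 1.69-fold higher by the authors' deposited table. Set against all cells outside cluster 2, the folds in clusters 4, 10 and 12 came to 1.59, 1.51 and 1.55 and lay below the table's threshold of 0.5 on the natural log scale.

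The lowest Igfbp2 value lay in the cardiomyocyte-like cluster 2 [25.7%], in which all 10 cardiomyocyte markers were higher. Igfbp2 was detected in 9.4% of its cells against 60.6% outside and was 5.61-fold lower by the authors' deposited table. That was the fourth largest fall of the 308 genes listed lower in cluster 2. Cluster 13, in which 9 of the 10 cardiomyocyte markers were higher, does not list Igfbp2. Of the 6 nascent mesoderm markers that the table holds, 3 were higher in cluster 0 and 5 in cluster 7, and T was not among them in either. Cluster 3, which does not list Igfbp2, had 3 higher, and T was 1 of these. There T was 8.46-fold higher by the authors' deposited table. Clusters 0 [3.76%] and 7 [2.84%] detected Igfbp2 in 29.6% and 33.2% of cells and had 3.32-fold and 2.87-fold lower means by the authors' deposited table. In cluster 14 [9.19%], led by Col4a1, Gkn2 and Sparc, it was detected in 22.9% of cells and was 2.89-fold lower by the authors' deposited table. In cluster 5 [4.26%], led by Sostdc1, Col9a1 and Col3a1, it was detected in 35.2% of cells and was 1.93-fold lower by the authors' deposited table.

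**Figure D1:**
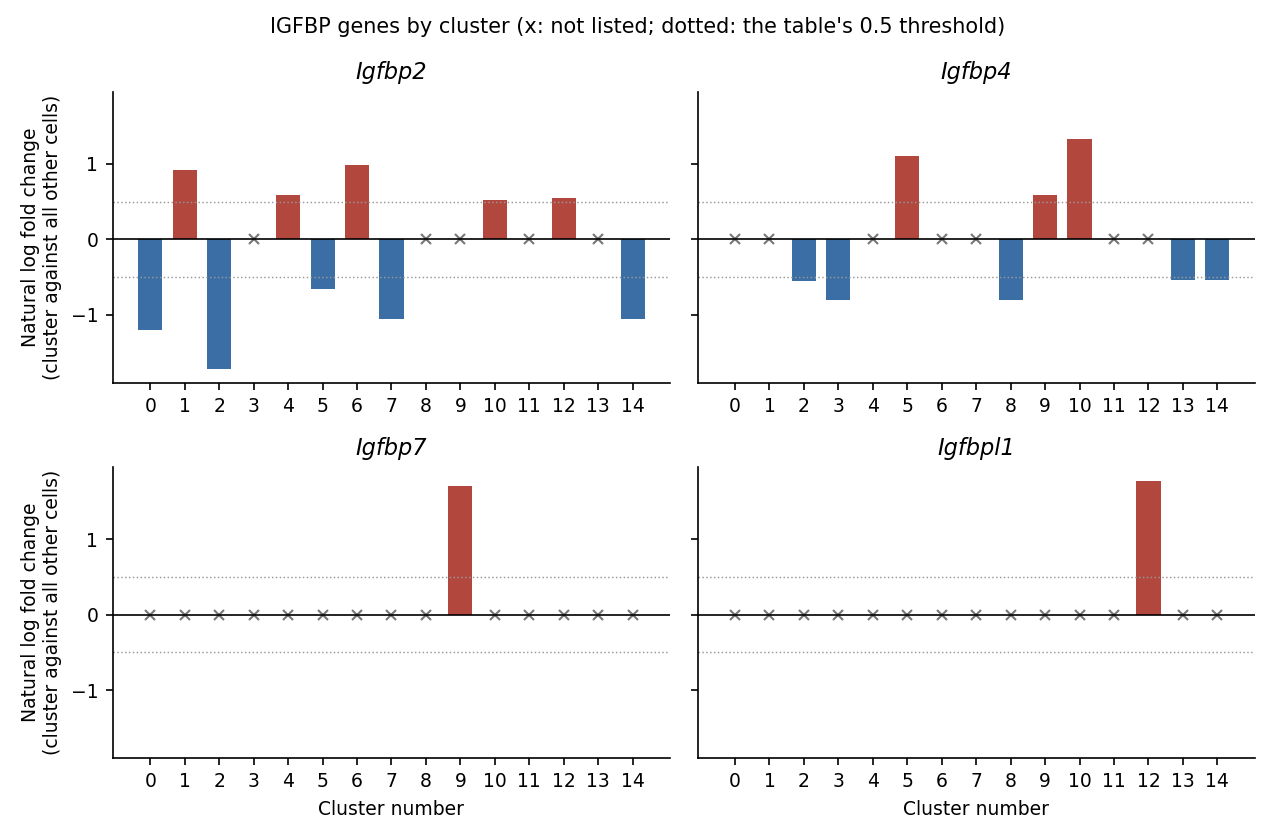
Bars give the deposited natural log fold change of each gene (cluster against all other cells) by cluster number, red for higher and blue for lower, and a cross marks a cluster that does not list the gene. Igfbp2 has 5 bars on each side of 0, Igfbp4 has 3 higher and 5 lower, and Igfbp7 and Igfbpl1 have 1 bar each.

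On a single scale, the Igfbp2 level relative to all cells was 2.38 in cluster 6, 2.08 in cluster 1, 1.71 in cluster 12, 1.68 in cluster 4 and 1.66 in cluster 10. It was 0.54 in cluster 5, 0.365 in cluster 7, 0.346 in cluster 14, 0.338 in cluster 0 and 0.199 in cluster 2. Neighbours in this order lay less than 0.5 apart on the natural log scale, except between clusters 10 and 5 (1.12) and between clusters 0 and 2 (0.53). The top and bottom clusters, 6 and 2, differed 12.0-fold in level. The 5 clusters that do not list Igfbp2 (3, 8, 9, 11 and 13) had a joint level of 0.777 and a joint detection of 61%. Their detection therefore lay above that of all cells while their mean level lay below it.

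The 5 higher clusters held 34.1% of all cells and 54.6% of the cells that detected Igfbp2. Cluster 1 alone held 21.8% of them (21.7 to 21.9), with 13.3% of all cells. Cluster 2, with 12.6% of all cells, held 2.20% of them (2.18 to 2.21).

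Igfbp4 was listed for 8 clusters, higher in 3 and lower in 5, where 3.26% of the table's genes were listed for at least 8 and 4.34% were listed lower for at least 5. It was detected in 25.4% of all cells, with estimates between 25.37% and 25.45%. Its detection ran from 6.9% to 73.5% across the listing clusters by the authors' deposited table.

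Igfbp4 was highest in cluster 10, where it was detected in 73.5% of cells against 24% outside and was 3.79-fold higher by the authors' deposited table. In cluster 5 [4.09%], all 3 cartilage markers in the table (Col2a1, Col9a1 and Sox9) were higher. Col2a1 and Col9a1 were also higher in clusters 10 and 11, and cluster 11 does not list Igfbp4. In cluster 5, Igfbp4 was detected in 57.3% against 22.4% and was 3.04-fold higher by the authors' deposited table. In cluster 9 [9.61%], led by Igfbp7, the smooth muscle gene Tagln and the mesenchymal filament gene Vim, it was detected in 54.9% against 24.4% and was 1.79-fold higher by the authors' deposited table. Of the 8 fibroblast and smooth muscle markers in the table, 5 were listed higher in cluster 9, 5 in cluster 10 and 3 in cluster 5. Such markers were also higher in clusters without a higher Igfbp4: 2 in cluster 2, which lists Igfbp4 lower, 2 in cluster 11, which does not list it, and 1 each in clusters 1, 6, 12 and 14.

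The lowest Igfbp4 values lay in clusters 3 and 8. Cluster 3 [3.01%], led by Krt8, T and Trh, with all 7 epithelial markers higher, and the pluripotent-like cluster 8 [4.26%], led by Pou5f1, Dnmt3b and Pim2, detected it in 7% and 6.9% of cells. The means of clusters 3 and 8 were 2.23-fold and 2.24-fold lower by the authors' deposited table. Of the same 7 epithelial markers, 4 were higher in cluster 8, 6 in cluster 14 and 1 in cluster 9, which lists Igfbp4 higher. In cluster 2 it was detected in 13.1% against 27.2% and was 1.73-fold lower by the authors' deposited table. Cluster 13 [2.01%], led by Myl7, Tnnt2 and Myl4, and cluster 14 had 1.72-fold lower means each by the authors' deposited table. The entry for cluster 14 had an adjusted p of 1 over cells by the authors' deposited table and that for cluster 13 had 0.0233, and cells are not replicates. Without those 2 small clusters, which hold 0.497% and 0.291% of cells, 3 lower clusters were left.

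Relative to all cells, the Igfbp4 level was 3.51 in cluster 10, 2.59 in cluster 5 and 1.74 in cluster 9. The 5 lower clusters lay close together, between 0.463 in cluster 8 and 0.61 in cluster 2, and the whole range was 7.58-fold. The only neighbours in this order that lay at least 0.5 apart on the natural log scale were clusters 9 and 2, at 1.05. The 3 higher clusters held 14.7% of all cells and 34.7% of the cells that detected Igfbp4, with 19.2% (19.1 to 19.3) in cluster 5. The 7 clusters that do not list the gene held 54.0% of the detecting cells, with a joint detection of 24.7%.

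Igfbp7 was listed for a single cluster, as the gene with the highest fold of the 115 listed higher in cluster 9. Inside the cluster 35.2% of cells detected it against 2.2% outside, and the mean was 5.53-fold higher by the authors' deposited table. Of all genes in the table, 48.7% were likewise listed for exactly 1 cluster, as higher. Igfbp7 was detected in 3.27% of all cells, and the smallest larger share of any entry was 25.1%. It could therefore be listed only where it was high, and never as lower. The detection share inside was 16 times that outside, and 3 of the 115 genes had a smaller share outside. Cluster 9 held 3.24% of all cells and 34.9% (34.2 to 35.6) of those that detected Igfbp7, so the other 65.1% lay in 14 clusters that do not list it. Its level relative to all cells was 4.82 in cluster 9, against a joint level of 0.872 elsewhere. Cluster 9 also listed 3 of the 5 cardiac progenitor markers in the table as higher (Isl1, Gata6 and Hand1). Cluster 2 listed 2 as higher (Isl1 and Mef2c) and cluster 14 listed 2 (Gata4 and Gata6), and neither lists Igfbp7.

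Igfbpl1 was likewise listed for a single cluster, the neuron-like cluster 12. Inside that cluster 58% of cells detected it against 4.3% outside, a 5.93-fold higher mean by the authors' deposited table. This was the fifth highest fold of the 93 genes listed higher there, in a cluster led by the neuronal tubulins Tubb3 and Tubb2b and by Stmn2. Cluster 12 held 1.60% of all cells and 18% (17.6 to 18.4) of those that detected Igfbpl1. The other 82% lay in the 14 remaining clusters, which together hold 98.4% of cells. Its level relative to all cells was 5.49 in cluster 12, against a joint level of 0.927 elsewhere. Detected in 5.16% of all cells, Igfbpl1 could also be listed only where it was high.

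**Figure D2:**
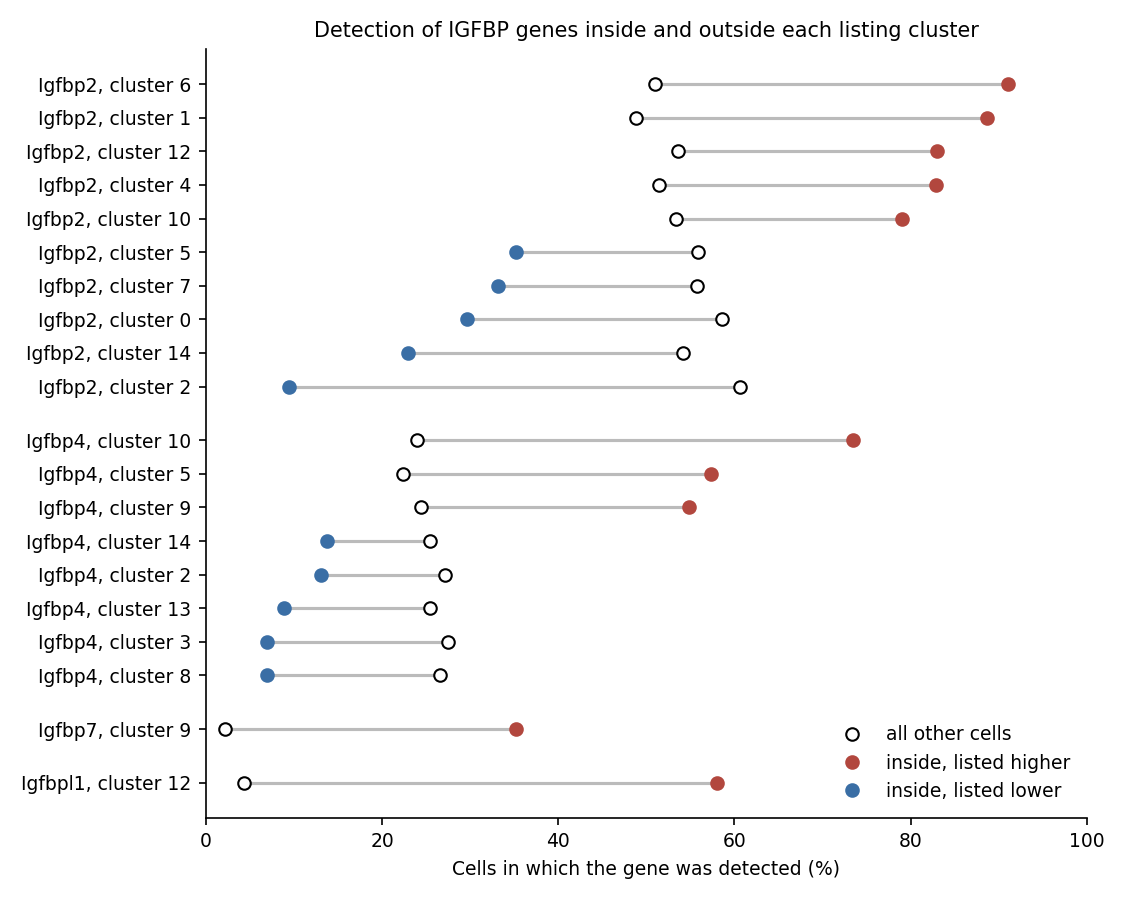
Each line joins the share of cells (percent) that detected a gene outside a cluster (open circle) and inside it (filled circle, red where listed higher and blue where listed lower), from the deposited shares. Igfbp2 spans 9.4% to 91.1% inside its clusters, while Igfbp7 and Igfbpl1 start from 2.2% and 4.3% outside.

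**Figure D3:**
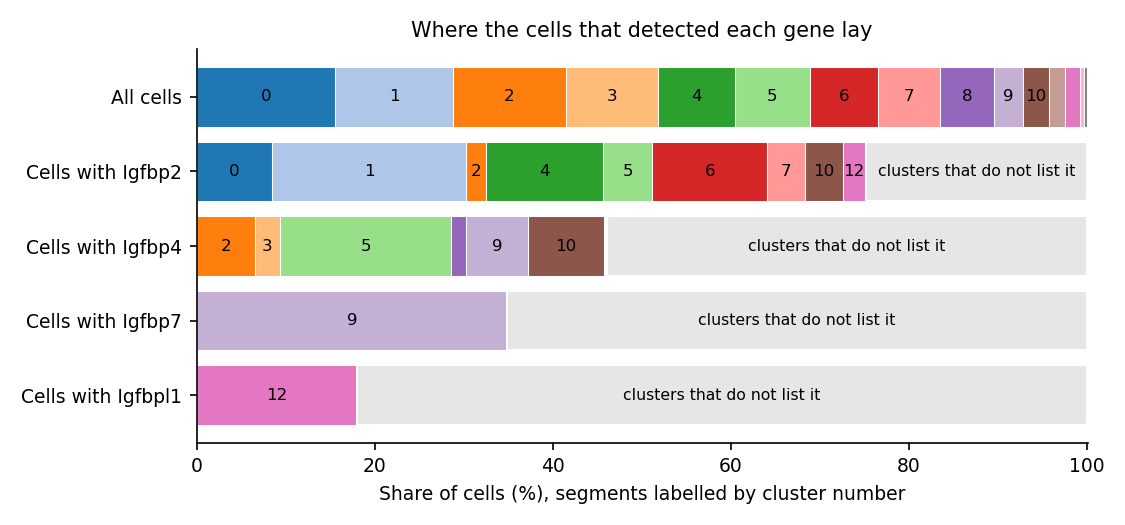
Bars give the share of all cells, and of the cells that detected each gene, in each listing cluster, with grey for all clusters that do not list the gene. Cluster 1 holds 21.8% of the cells with Igfbp2, cluster 5 19.2% of those with Igfbp4, cluster 9 34.9% of those with Igfbp7 and cluster 12 18% of those with Igfbpl1.

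Members met in 6 of the clusters. Cluster 10 listed 2 of the 4 members as higher (Igfbp2 and Igfbp4), where 6.85% of the table's genes were listed higher. At least 52.5% of its cells must have detected both genes, as the 2 shares sum to more than all cells. Cluster 12 listed 2 as higher (Igfbp2 and Igfbpl1, beside 7.77% of the table's genes). At least 41% of its cells must have detected both. Cluster 9 listed 2 as higher (Igfbp4 and Igfbp7, beside 9.61% of the table's genes), with no lower bound above 0 for cells with both. Cluster 2 listed 2 as lower (Igfbp2 and Igfbp4, beside 25.7% of the table's genes), as did cluster 14 (beside 9.19% of the table's genes).

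Cluster 5 was the only cluster in which members were listed in opposite directions. Igfbp4 was listed higher there and Igfbp2 lower, where 4.09% of the table's genes were listed higher and 4.26% lower. Igfbp2 and Igfbp4 thus had the same direction in 3 of the 4 clusters that list both. Cluster 11, led by Col3a1, Col2a1 and Col1a2, listed none of the members and had the fewest listed genes, 10 higher and 19 lower.

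Other genes of the IGF system were looked up from a list of 54 that includes the members. Of the 50 others, 8 were in the table: the ligand gene Igf2, the receptor gene Igf2r, the non-coding Igf2 neighbour H19, Igfbp5, Igf2bp1, Cyr61, Ctgf and Crim1. No protease or protease inhibitor (of 6) and no receptor adaptor or signalling gene (of 15) was listed, so the table says nothing on Igf1r, Pappa or Irs genes beyond their not passing its thresholds.

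Igf2 stood opposite to Igfbp2 wherever both were listed. In cluster 0, Igf2 was detected in 77.9% of cells against 44.4% outside and was 2.21-fold higher by the authors' deposited table, while Igfbp2 was 3.32-fold lower. In clusters 1, 4 and 6, where Igfbp2 was higher, Igf2 was 1.73-fold, 1.97-fold and 1.69-fold lower by the authors' deposited table. In cluster 12 it was detected in 15.8% against 50.2% and was 3.28-fold lower by the authors' deposited table. The directions were opposite in 5 of 5 clusters. Of the 53 genes that share at least 5 listing clusters with Igfbp2, Igf2 alone was opposite in every shared cluster. Of the 53, 9 had the same direction in every one. The cut-off of 5 is the number of clusters that Igf2 shares, and at 4 other genes were opposite throughout as well.

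H19, a maternally expressed RNA beside Igf2, was opposite to Igfbp2 in 4 of 4 shared clusters. Clusters 5, 7 and 14 had 2.06-fold, 1.89-fold and 2.80-fold higher means, and cluster 12 a 2.10-fold lower one, by the authors' deposited table. Of the 10 clusters that list Igfbp2, 8 therefore list Igf2 or H19 in the other direction, and clusters 2 and 10 list neither. The H19 entry for cluster 14 had an adjusted p of 0.0132 over cells by the authors' deposited table. With only entries at an adjusted p of at most 0.001, a filter chosen after seeing the data, H19 was opposite in 3 of 3 clusters and either gene in 7. Of the 73 genes that share at least 4 listing clusters with Igfbp2, the number that H19 shares, 4 were opposite in every one. They were Igf2, H19 and, chosen after their values were seen, Cnn2 and Hsp90b1. Igf2 and Igfbp2 were still present together in cluster 6, where at least 30.7% of cells must have detected both. That lower bound was 28.2% in cluster 1, 17.1% in cluster 4, 7.5% in cluster 0 and 0.0% in cluster 12. For H19 and Igfbp2 it ran from 0.0% in cluster 14 to 11.1% in cluster 12. No such bound was worked out for Cnn2 or Hsp90b1.

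**Figure D4:**
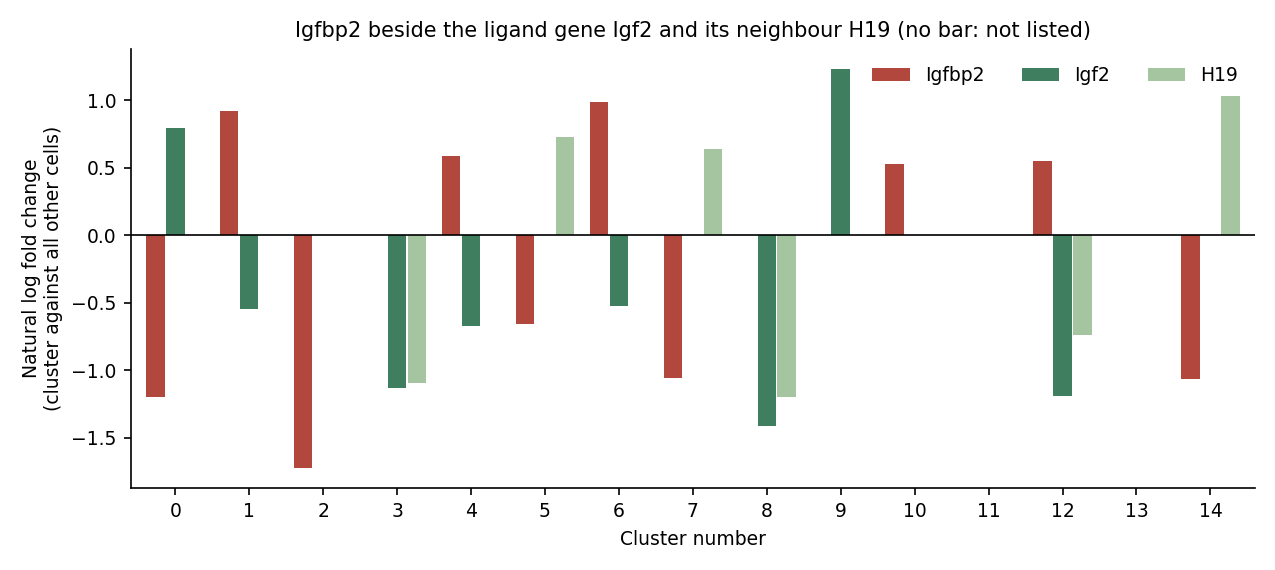
Bars give the deposited natural log fold change (cluster against all other cells) of Igfbp2, Igf2 and H19 by cluster number, with no bar where a gene is not listed. Wherever an Igfbp2 bar stands beside an Igf2 or H19 bar, in 8 clusters, the bars point in opposite directions.

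Igfbp4 and Igf2 had the same direction in the 3 clusters that list both, lower in clusters 3 and 8 and higher in cluster 9. In cluster 3, Igf2 was 3.11-fold lower and in cluster 8 it was 4.11-fold lower by the authors' deposited table. In cluster 9, Igf2 was detected in 84.3% against 48.5% and was 3.42-fold higher by the authors' deposited table. At least 39.2% of the cells of cluster 9 must have detected Igf2 and Igfbp4, and at least 19.5% Igf2 and Igfbp7.

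Cluster 9 listed 7 of the 12 IGF system genes in the table as higher and none as lower, the most of any cluster. Beside Igfbp7, Igfbp4 and Igf2 these were Igfbp5, Igf2r, Ctgf and Cyr61. Igf2r, the receptor that clears IGF2, was detected in 45% of cells against 12% outside and was 2.39-fold higher by the authors' deposited table. Ctgf and Cyr61, matricellular genes whose proteins carry an IGFBP-type domain, were 2.69-fold and 2.59-fold higher by the authors' deposited table. The genes of a list made with earlier results known are no independent evidence, and 9.61% of the table's genes were listed higher there.

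Igfbp5, the coding gene next to Igfbp2 on chromosome 1 in RefSeq, had another pattern. It was listed higher in clusters 2, 9 and 13 and lower in none. In the cardiomyocyte-like cluster 2 it was detected in 50.9% of cells against 14% outside and was 2.60-fold higher by the authors' deposited table, while Igfbp2 was 5.61-fold lower. In cluster 13 it was 1.84-fold higher and in cluster 9 2.35-fold higher by the authors' deposited table. The entry for cluster 13 had an adjusted p of 0.108 over cells by the authors' deposited table. Cluster 2 held 34.5% (34.4 to 34.6) of the cells that detected Igfbp5. Igf2r was also higher in cluster 2, 3.36-fold, and Igf2bp1, which encodes an IGF2 mRNA-binding protein, was 1.75-fold lower by the authors' deposited table. Of the table's 1197 genes, 272 were listed higher in cluster 2 and 64 in cluster 13. Among the 272, Igfbp5 ranked 110 and Igf2r 74 by fold.

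The genes with the pattern most like each member were found by signed overlap, the cluster-and-direction entries that a pair shares divided by all entries of the pair. For Igfbp2 they were the tubulin gene Tubb2b (0.727, with 8 shared entries), the BMP target Id3 (0.636, with 7) and the imprinted gene Nnat (0.615, with 8), and none of the 3 was opposite in any cluster. Nnat was 11.2-fold lower in cluster 2 and 5.43-fold higher in cluster 12 by the authors' deposited table. For Igfbp4 they were Mfap2, a microfibril protein gene (0.667, with 6), the membrane-associated kinase substrate gene Marcks (0.625, with 5) and the surface proteoglycan gene Gpc3 (0.5, with 5). Clusters 10 and 5 had 4.15-fold and 2.81-fold higher Mfap2 means by the authors' deposited table, beside 3.79-fold and 3.04-fold for Igfbp4. Igfbp7 and Igfbpl1 have 1 entry each and were not ranked, as the measure needs 2 shared entries.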

How the data were processed

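Single cells of 4 libraries were profiled by the 10x V2 droplet chemistry, per the series' design text. The submitters' processing notes name Cell Ranger, Seurat and mm9. For versions, cell filters and doublet treatment nothing is given in the sources used here. The deposited table gives a natural log fold change per gene and cluster, the deposited fraction of cells detecting the gene inside and outside, and deposited p-values over cells, per the file headers. The p-values served as a filter for 1 alternative. The natural base was inferred, as it held for 4 of 4 genes whose clusters hold at least 90% of cells. Base 2 and base 10 held for none. The smallest absolute value was 0.50 and the smallest larger share 25.1%, so an unlisted gene may still differ. No source used here gives the constant the authors may have added before logs. It would make folds of weakly detected genes too small, and their levels too near the mean of all cells.

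Cluster sizes were solved by least squares from 407 genes listed for 2 or more clusters, and summed to 100.002%. With w the size, the relative level is exp(x) / (w exp(x) + 1 - w) for a log fold change x. The steps were tested on simulated data with the same constant built into folds and levels. That test cannot show what an unknown constant does to either. Members, gene lists and markers were chosen with earlier results of these data known. The named genes were the members, the IGF system genes in the table, the 3 leading genes of each cluster and the 3 most similar genes of each member, which needed 2 shared entries. Promoters came from RefSeq on GRCm38.p6, and no coordinate was taken on mm9. Python 3.11.15, numpy 2.4.6, pandas 2.3.3 and matplotlib 3.10.9 were used.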

Additional observations from a re-analysis of the deposited data

How the results depend on the processing

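No test was made, so the alternatives bear on counts and sizes. With entries of at least 1 on the natural log scale, the clusters listing Igfbp2 higher and those listing Igfbp4 lower were both 0. With a larger share of at least 50%, the clusters listing Igfbp7 higher and Igfbp4 lower were 0. With an adjusted p over cells of at most 0.001, 3 clusters listed Igfbp4 lower. Without cluster 2 in the reference, Igfbp2 was 1.59-fold higher in cluster 4, 1.51-fold in cluster 10 and 1.55-fold in cluster 12. These folds lay below the table's threshold because the cells with the lowest level left the reference. The other 13 folds worked out this way stayed past the threshold in the same direction. Those of Igfbp7, of Igfbpl1 and of the cluster 2 entries were not worked out this way. With entries of at least 0.75, 1 of the 3 most similar genes remained for Igfbp2 and 1 for Igfbp4, with fewer entries compared. Solving the sizes from subsets of the same genes and entries moved relative levels by at most 0.0495%. Shares of detecting cells moved by at most 3.60%, and the overlapping input makes this no independent check. No paired analysis was possible because each group has 1 library. Depth is unknown, and with it the counting error of every share.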
